A study of Mus musculus with 10 samples.

Results

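Transcripts of 10 genes of the hypoxia response were followed in mouse microglia: *Hif1a*, *Vegfa*, *Adm*, *Flt1*, *Egln3*, *Bnip3*, *Ero1l*, *Ndrg1*, *Ankrd37* and *P4ha1*. They were chosen by name, and their rows were read from the count tables of all 10 single cell libraries, which together listed 18292 gene symbols. All 10 were among the 12157 genes that passed the filter on low counts and were fitted. A gene without a row in a table was counted as 0 there, which was the case for *Ndrg1* and *Adm* in adult replicate 2, for *Ndrg1* in adult replicate 1, and for *Flt1* and *Adm* in slice 1 week replicate 2.

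Cells read low oxygen through the hypoxia-inducible factors (HIF). When oxygen is plentiful, prolyl hydroxylases of the Egln family mark the HIF alpha subunits, the von Hippel-Lindau protein binds the marked subunit, and the subunit is destroyed. When oxygen is scarce the alpha subunit persists, pairs with Arnt and raises the transcription of genes for glycolysis, mitochondrial turnover, vessel growth and collagen modification. The control acts largely on the protein, so the *Hif1a* transcript by itself does not report HIF activity. *Flt1* encodes a VEGF receptor known mainly from vessel endothelium and also made by monocytes and macrophages, where its ligands act on migration.

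The study compared microglia from 5 settings in C57BL/6 mice, with 2 libraries each, to ask how near each culture system comes to the cells of the adult brain. Adult microglia came straight from the brains of untreated mice aged 10 to 15 weeks. *In vitro* microglia were harvested from the medium of mixed glial cultures of cortices of pups at postnatal day 2, kept for 3 weeks at 37°C. Slice microglia came from brain slices of pups at postnatal day 1 to 4, kept on membrane inserts at the air and medium boundary at 35°C for 1 day, 1 week or 3 weeks, and several slices could be pooled for a library. All cells were sorted as live, CD11b high and CD45 intermediate, and no group carried a transgene. Human PDGF was put into the slice medium at each exchange, and none is described for the mixed glial cultures. The age of the animals, the culture, its medium and its temperature differ together between adult and cultured groups and cannot be told apart.

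The sequences just upstream of 4 of these genes are shown because they hold the core letters of the HIF response element, and because all 4 genes were called higher than adult at every slice time. The 250 bases before the transcription start are given 5′ to 3′ in the direction of the gene, from RefSeq on build GRCm38.p6 (mm10), and capitals mark each ACGTG or GCGTG on the printed strand or, as CACGT or CACGC, on the other one. The windows were chr7:138909507-138909756 on the minus strand for *Bnip3*, chr12:54203875-54204124 on the minus strand for *Egln3*, chr14:45318573-45318822 on the minus strand for *Ero1l* (named *Ero1a* in RefSeq) and chr7:110627407-110627656 on the plus strand for *Adm*. Each lies outside the annotated gene, directly before its start.
Bnip3: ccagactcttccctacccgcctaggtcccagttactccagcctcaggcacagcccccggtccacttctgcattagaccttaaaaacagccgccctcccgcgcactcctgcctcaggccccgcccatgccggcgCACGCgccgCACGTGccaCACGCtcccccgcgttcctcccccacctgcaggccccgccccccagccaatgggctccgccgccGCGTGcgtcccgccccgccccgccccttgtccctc
Egln3: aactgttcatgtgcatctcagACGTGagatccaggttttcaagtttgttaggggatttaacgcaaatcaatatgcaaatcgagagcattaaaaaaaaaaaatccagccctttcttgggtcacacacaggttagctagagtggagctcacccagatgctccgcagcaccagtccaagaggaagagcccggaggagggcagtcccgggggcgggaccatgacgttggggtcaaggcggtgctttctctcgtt
Ero1l: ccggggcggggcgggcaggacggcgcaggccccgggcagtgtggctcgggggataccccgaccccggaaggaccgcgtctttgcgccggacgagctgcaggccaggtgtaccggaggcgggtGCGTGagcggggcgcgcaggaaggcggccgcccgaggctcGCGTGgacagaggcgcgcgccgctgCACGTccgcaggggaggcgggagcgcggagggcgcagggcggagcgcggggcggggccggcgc
Adm: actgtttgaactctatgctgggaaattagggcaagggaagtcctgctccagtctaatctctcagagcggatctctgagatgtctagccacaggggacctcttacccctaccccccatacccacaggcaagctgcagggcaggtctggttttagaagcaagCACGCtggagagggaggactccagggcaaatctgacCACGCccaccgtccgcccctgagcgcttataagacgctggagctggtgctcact

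The *Bnip3* window held 5 matches, 117, 108, 107, 99 and 35 bases before the start, of which the pair at 108 and 107 is a single CACGTG read on both strands. The *Ero1l* window held 3 matches and the *Adm* window 2, while the *Egln3* window held 1 match, 229 bases before the start. All 10 genes matched the RefSeq gene table, and 9 had a promoter in the sequence table, with 2 starts for *Vegfa*, so that 10 windows were searched. Of these 10 windows, 9 held at least 1 of the 2 motifs, against 38.6% of all 32851 promoter windows of the same length. ACGTG was in 7 of the 10 windows (16.6% of all) and GCGTG in 7 (28.2% of all). The *Flt1* window held 1 GCGTG, 184 bases before the start, the *Hif1a* window held 3 ACGTG matches, and the upstream *Vegfa* start had no match. The window of the other *Vegfa* start held 1 ACGTG and 1 GCGTG and lies inside the annotated gene. Those of *Hif1a*, *Flt1* and *Ankrd37* also lie inside the annotated span of their gene, and that of *P4ha1* overlaps it. *Ndrg1* was not in the sequence table. A match is a run of letters and does not show that a factor was bound.

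The kept cells numbered 19059 of 19637 barcodes, with the fewest in slice 1 week replicate 2 (61) and the most in adult replicate 1 (3799), and total UMIs (counted molecules) per library ran from 385373 to 39689540. Cells were kept by limits on quality alone. The study also left out outlying cells by t-SNE, a step not repeated here. It states fewer than 61 microglia for each 1 week sample, where 148 and 61 cells were kept here. Most cells of slice 1 week replicate 1 are thus beyond the number that the study counted. Levels are given as CPM, counts per 1e6 UMIs on the library size scaled by TMM, and are compared between groups for 1 gene and not between genes. Sums of marker lists are instead per 1e6 UMIs of the plain library size. Summed microglia markers ran from 3387 to 45584 CPM with all 10 detected in every library, highest in the adult libraries and lowest *in vitro*. Neutrophil markers summed to 7762 to 40352 CPM in both slice 1 day libraries and slice 1 week replicate 1, to 955 CPM in slice 1 week replicate 2 and to at most 8.39 CPM in the other 6 libraries. Red cell markers summed to 1851.5 CPM in adult replicate 1 and 3463 CPM in slice 1 day replicate 1, and to at most 1.02 CPM elsewhere. Markers of brain macrophages summed to 4508 and 4322 CPM *in vitro*, to 128 to 487 CPM in the 6 slice libraries and to 13.9 and 8.24 CPM in adult, and their part in the rises over adult was not tested. In such summed libraries, fewer cells that express a gene and less RNA per cell cannot be told apart.

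Against adult microglia, most of the 10 genes were higher in slices, and 3 were called higher *in vitro*. Genes were called at an edgeR adjusted p under 0.05 over all genes fitted and a fold change over 1.5. After 1 day in slices 8 of 10 were called higher, where 24.9% of all genes fitted were, and 1 was called lower (25.3% of all). After 1 week 7 were called higher (15% of all) and 1 lower (13.6% of all), but without slice 1 week replicate 1 the calls fell from 8 to 2, *Bnip3* and *Egln3*. After 3 weeks all 10 were called higher (17.9% of all) and none lower (17.5% of all; *P4ha1*, the smallest rise, was 0.70 ± 0.21 on the log2 scale). *In vitro*, 3 were called higher (22.4% of all) and 1 lower (28.5% of all). Their median difference from adult, in log2 units, was 1.17 *in vitro*, 3.58 at 1 day, 3.35 at 1 week and 3.73 at 3 weeks, while the medians over all genes fitted lay between -0.11 and -0.03. These 4 comparisons share the 2 adult libraries.

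**Figure D1:**
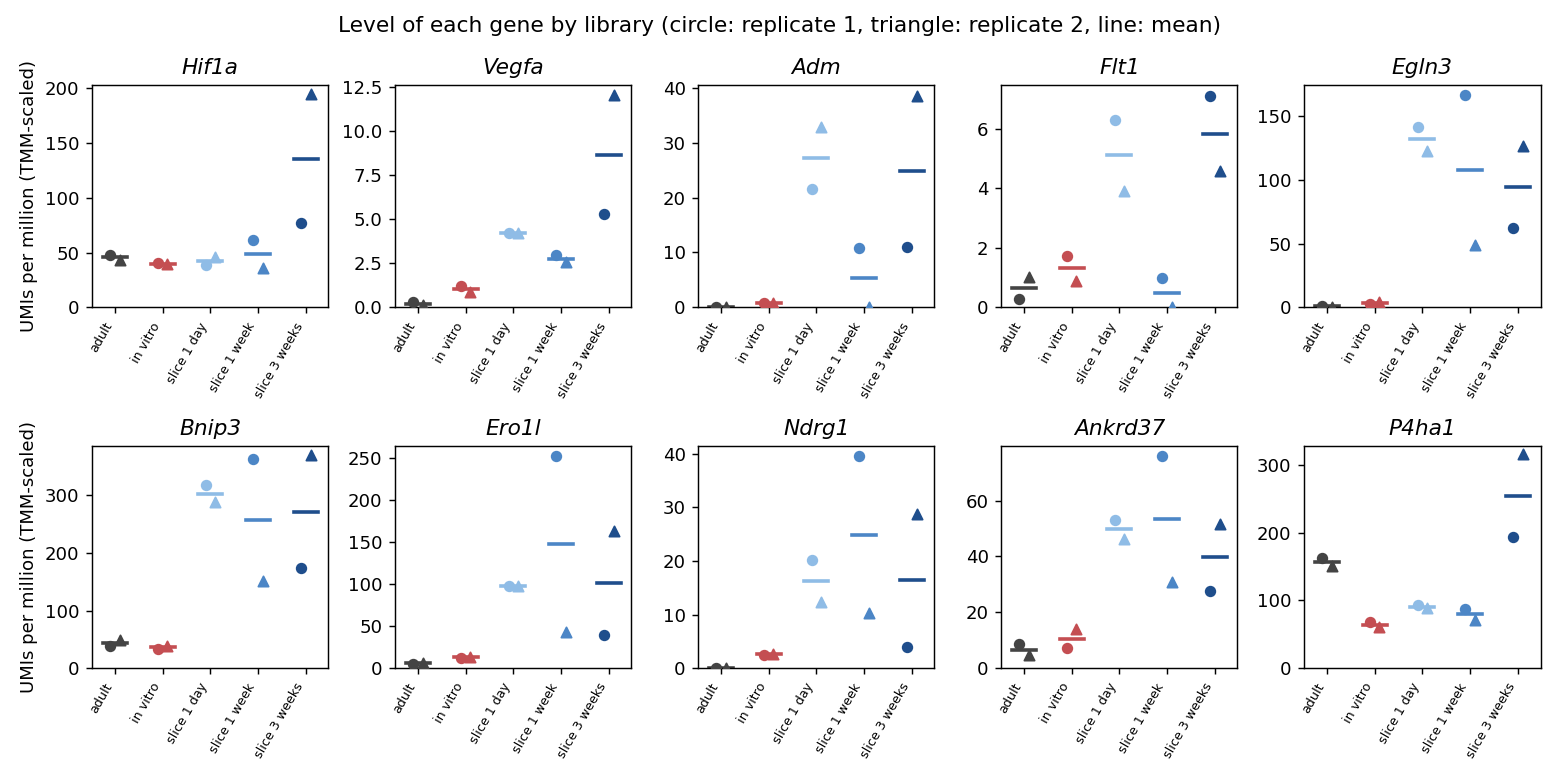
Level of each gene in each library, in TMM-scaled CPM on a linear axis that starts at 0 and differs between panels; circles are replicate 1, triangles replicate 2 and lines the mean of the 2 libraries. *Bnip3* lies at 38.5 and 48.6 in adult and at 151 or more in all 6 slice libraries, while *Hif1a* leaves its adult range clearly only at 3 weeks, where its libraries lie at 76.5 and 195.

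*Hif1a*, the oxygen-regulated alpha subunit of HIF-1, was at a similar level everywhere except in slices after 3 weeks. Its levels were 48.2 and 43.3 CPM in adult, 40.2 and 39.3 CPM *in vitro*, 38.3 and 46.4 CPM at 1 day, 61.3 and 35.8 CPM at 1 week and 76.5 and 195 CPM at 3 weeks. Both libraries of 3 weeks lay above all 8 others, with a wide gap between them. The rise at 3 weeks over adult was 2.98-fold (log2 1.57 ± 0.35 SE, edgeR adjusted p = 0.00495), and over 1 day it was 3.20-fold (1.68 ± 0.35, edgeR adjusted p = 0.00601). Without slice 3 weeks replicate 2 these values were 0.80 and 0.85 and still called. Against 1 week the difference was 1.39 ± 0.41 and did not pass (edgeR adjusted p = 0.0811). At 1 day the difference from adult was -0.10 ± 0.35 and at 1 week 0.18 ± 0.42, so 8 and 7 of the genes were higher there with no detectable change of the *Hif1a* transcript.

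*Vegfa*, the main ligand that draws vessels to tissue short of oxygen, was scarce in every group and highest in slices. It had 4 and 1 UMIs in the adult libraries, 0.293 and 0.129 CPM. Levels were 1.19 and 0.898 CPM *in vitro*, 4.19 and 4.22 CPM at 1 day, 2.96 and 2.56 CPM at 1 week and 5.30 and 12.02 CPM at 3 weeks. In the order adult, *in vitro*, 1 day, 3 weeks no group overlapped its neighbour, and the place of 1 week cannot be read from its 3 and 1 UMIs. The step from adult to *in vitro* passed the test (4.37-fold, 2.13 ± 0.66, edgeR adjusted p = 0.0185), as did that from *in vitro* to 1 day, and that from 1 day to 3 weeks did not (edgeR adjusted p = 0.0697). The first call rests on 5 UMIs in adult and ended in 4 of 21 other settings, without either adult library, with the study label as a covariate and with thinned cells (adjusted p up to 0.189). Against adult it was 17.6-fold higher at 1 day (4.13 ± 0.63, edgeR adjusted p = 0.000329) and 37.1-fold higher at 3 weeks (5.21 ± 0.58, edgeR adjusted p = 8.8e-05). Without adult replicate 1 these values were 4.97 and 6.06, and without slice 3 weeks replicate 2 the second was 4.51, all still called. The 1 week value rests on 3 and 1 UMIs (11.9-fold, 3.57 ± 1.14, edgeR adjusted p = 0.0377), and 7 of 19 other settings ended that call, with adjusted p from 0.00466 to 0.375.

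*Adm* encodes adrenomedullin, a vasodilator peptide and a frequent HIF target. It was almost absent from adult microglia, with 1 UMI in replicate 1 and 0 in replicate 2. *In vitro* it stood at 0.867 and 0.870 CPM, at 1 day at 21.5 and 32.9 CPM and at 3 weeks at 11 and 38.6 CPM. At 1 week replicate 1 held 11 UMIs (10.9 CPM) and replicate 2 none, where a count of 0 allows up to 7.68 CPM. Slices of 1 day and 3 weeks lay above every adult and *in vitro* library. With 401 UMIs at 1 day and 1 in adult, the ratio of the pooled counts was 635 with a counting interval from 113 to 25150, and at 3 weeks it was 670 (120 to 26480). These intervals hold counting error only. Of the 913 UMIs at 3 weeks, 828 were in replicate 2. The fitted 3 week log2 value was 8.83, and it was 7.64 without slice 3 weeks replicate 2 and 9.465 without replicate 1. The edgeR fit called *Adm* higher than adult at all 3 slice times (adjusted p from 6.3e-05 to 0.0140) and not *in vitro* (adjusted p = 0.0531), a value that 12 of 21 other settings moved past the threshold. Without adult replicate 1 adult had no UMI of *Adm*, and the 3 slice calls held. Without slice 1 week replicate 1 the week had no UMI of *Adm* and no call.

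*Flt1*, the receptor, was low in all groups, and its called rises over adult were at 1 day and 3 weeks. It had 4 and 8 UMIs in the adult libraries, 0.293 and 1.03 CPM. *In vitro* it stood at 1.73 and 0.898 CPM, at 1 day at 6.29 and 3.92 CPM and at 3 weeks at 7.11 and 4.56 CPM. The 1 week libraries held 1 UMI and 0 UMIs, and the count of 0 in replicate 2 allows up to 7.68 CPM. Libraries of 1 day and 3 weeks overlapped each other and lay above all adult and *in vitro* libraries, while their order against 1 week cannot be read at this depth. The rise over adult was 8.24-fold at 1 day (3.04 ± 0.64, edgeR adjusted p = 0.00237) and 9.60-fold at 3 weeks (3.26 ± 0.61, edgeR adjusted p = 0.00193). Without adult replicate 1 these rises were 2.28 and 2.52, without adult replicate 2 they were 4.03 and 4.24, and all were still called. *In vitro* *Flt1* did not pass against adult (1.14 ± 0.64, edgeR adjusted p = 0.15). From 1 day to 1 week the pooled counts fell from 62 to 1, a ratio of 6.43 with a counting interval from 1.11 to 258, and the fitted difference of -2.78 ± 1.31 did not pass (edgeR adjusted p = 0.211). With 148 and 61 cells at 1 week, a change of *Flt1* from 1 day was not resolved. Thinning each cell to 1500 UMIs ended the call at 1 day (log2 2.36, adjusted p = 0.0710) and kept that at 3 weeks. Over 21 settings the 1 day value ran from 2.28 to 4.03, with adjusted p from 9.0e-08 to 0.0710.

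*Flt1* should not be mistaken for *Ftl1*, the ferritin light chain, whose symbol exchanges 2 letters and which was among the most abundant transcripts, at 3122 and 3689 CPM in adult and 35824 and 38411 CPM *in vitro*. The *Flt1* signal was looked at cell by cell, since endothelium carries the receptor. A UMI of *Flt1* was found in 260 of 19059 cells. Of these, 23 held a UMI of any endothelial marker and 2 held UMIs of 2 such markers, while among cells without *Flt1* the share with any endothelial marker was 3.96% to 19.9% by library. At 1 day the *Flt1* cells with such a marker were 6 of 21 and 3 of 29, against 14.5% and 14.9% of the other cells. They were 1 of 4 and 0 of 8 in adult (10.1% and 6.22% of the others) and 5 of 49 and 3 of 30 *in vitro* (19.9% and 16.1%). At 3 weeks they were 1 of 42 and 4 of 76 (3.96% and 4.18%). None of the 260 held *Cldn5*, *Cdh5*, *Esam* or *Tie1*, which were themselves rare, in 0% to 1.81% of the cells without *Flt1*. *Tek* and *Slco1a4* were at 0 in every library. On library size alone, the endothelial list, with 8 of 10 genes listed, summed to 34.5 and 34.0 CPM in adult, 19.97 and 13.6 CPM *in vitro*, 27.9 and 20.5 CPM at 1 day, 36.1 and 7.78 CPM at 1 week and 6.27 and 8.10 CPM at 3 weeks. Of these sums, *Pecam1* alone made 31.5 and 31.6 CPM in adult, and *Egfl7* 16.6 and 10.4 CPM *in vitro*. The order of the sums is not that of each marker. *Esam* was at 0 in adult and *in vitro*, at 1.64 and 1.89 CPM at 1 day and at 0 and 0.761 CPM at 3 weeks. *Cdh5* was at 1.21 and 0.735 CPM in adult and at 1.09 and 0.524 CPM at 1 day. Monocyte markers, all 8 listed, summed on the same scale to 7.51 and 5.001 CPM in adult, 1.15 and 0.957 CPM *in vitro*, 188 and 399 CPM at 1 day, 880 and 0 CPM at 1 week and 1.28 and 0.761 CPM at 3 weeks. They were high at 1 day, where *Flt1* was called higher, and low at 3 weeks, where it was too. The parts of endothelial and monocyte RNA in the *Flt1* values were not tested.

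*Egln3*, a prolyl hydroxylase that HIF itself raises and that marks HIF alpha for removal, gave the largest fold among the genes with more than a few adult counts. Its levels were 1.17 and 0.644 CPM in adult and 2.76 and 4.13 CPM *in vitro*. In slices it stood at 141 and 122 CPM at 1 day, 166 and 48.6 CPM at 1 week and 62.4 and 126 CPM at 3 weeks. All 6 slice libraries lay above all 4 others. Fold changes over adult were 135 at 1 day (7.07 ± 0.60, edgeR adjusted p = 8.7e-06), 120 at 1 week (6.91 ± 0.63, edgeR adjusted p = 4.4e-05) and 97.1 at 3 weeks (6.60 ± 0.60, edgeR adjusted p = 2.7e-05). Without adult replicate 1 the log2 values were 7.69, 7.52 and 7.24, and without slice 1 week replicate 1 the 1 week value was 5.67 (adjusted p = 0.00425), all still called. The 3.55-fold rise *in vitro* passed narrowly (1.83 ± 0.65, edgeR adjusted p = 0.0331), and 6 of 21 other settings ended that call.

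*Bnip3*, which places a receptor for mitochondrial removal on the outer membrane, separated slices from both other sources. It was at 38.5 and 48.6 CPM in adult and at 33.9 and 39.3 CPM *in vitro*, where the ranges overlapped. In slices it stood at 318 and 288 CPM at 1 day, 364 and 151 CPM at 1 week and 175 and 370 CPM at 3 weeks. It was 6.98-fold higher than adult at 1 day (2.80 ± 0.40, edgeR adjusted p = 0.000226), 6.11-fold at 1 week (2.61 ± 0.41, edgeR adjusted p = 0.00101) and 6.27-fold at 3 weeks (2.65 ± 0.40, edgeR adjusted p = 0.000548). Without slice 1 week replicate 1 the 1 week value was 1.83, and without slice 3 weeks replicate 2 the 3 week value was 2.06, both still called. The *in vitro* difference was -0.25 ± 0.38 (edgeR adjusted p = 0.605).

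*Ero1l*, the oxidase that drives disulfide formation in the endoplasmic reticulum, rose with *Bnip3*. It was at 5.35 and 5.92 CPM in adult, 12.1 and 13.8 CPM *in vitro* and 97.8 and 97.5 CPM at 1 day. At 1 week its libraries parted, at 252 and 43.5 CPM, as they did at 3 weeks, at 39.8 and 163 CPM. Every slice library still lay above every adult and *in vitro* library, and the fold over adult ran from 17.4 at 1 day (4.12 ± 0.73, edgeR adjusted p = 0.000818) to 28.8 at 1 week (4.85 ± 0.77, edgeR adjusted p = 0.00105). In slice 1 week replicate 1 a single cell held 95 of the 255 *Ero1l* UMIs, and without that library the 1 week value was 2.98 and not called (adjusted p = 0.144). The 3 week value was 4.91 without replicate 1 and 2.89 without replicate 2 of that group, both called. *In vitro* the groups did not overlap either, but the rise of 1.21 ± 0.69 did not pass (edgeR adjusted p = 0.162).

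*Ndrg1*, a stress-responsive gene long used as a hypoxia marker, had no UMI in either adult library, which allows up to 0.14 CPM over both libraries. It had 78 and 97 UMIs *in vitro* (2.51 and 2.72 CPM). In slices it stood at 20.2 and 12.4 CPM at 1 day, 39.5 and 10.2 CPM at 1 week and 4.01 and 28.7 CPM at 3 weeks. Against the adult floor it was at least 18.7-fold higher *in vitro*, 116-fold higher at 1 day, 178-fold at 1 week and 117-fold at 3 weeks, and edgeR called all 4 rises (adjusted p from 0.00105 to 0.0153). These bounds are from the mean of 2 libraries, and the lower library alone gave at least 88.3-fold at 1 day, 73.1-fold at 1 week and 28.6-fold at 3 weeks. Replicate 1 of 3 weeks lay nearest to the *in vitro* libraries and still above both. The 1 week call ended without slice 1 week replicate 1 (adjusted p = 0.192) and the *in vitro* call without adult replicate 1 (adjusted p = 0.0859).

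*Ankrd37*, a small ankyrin repeat protein and a direct HIF-1 target, was at 8.50 and 4.64 CPM in adult and at 7.19 and 14 CPM *in vitro*, with overlapping ranges. It stood at 53.2 and 46.3 CPM at 1 day, 76.1 and 30.7 CPM at 1 week and 27.6 and 51.8 CPM at 3 weeks. The fold over adult was 7.30 at 1 day (2.87 ± 0.45, edgeR adjusted p = 0.000391), 8.71 at 1 week and 5.92 at 3 weeks, all called, and the *in vitro* difference was 0.65 ± 0.43 (edgeR adjusted p = 0.228). Without adult replicate 1 the log2 values were 3.46 at 1 day and 3.17 at 3 weeks, both called. Without slice 1 week replicate 1 the 1 week value was 2.21 and not called (adjusted p = 0.178).

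*P4ha1*, the catalytic subunit of the enzyme that hydroxylates prolines of collagen, differed in direction from the other targets. It was at 163 and 150.2 CPM in adult and lower in 3 of the cultured groups, at 92.8 and 88.4 CPM at 1 day, 87.0 and 71.6 CPM at 1 week and 67.3 and 61.2 CPM *in vitro*. At 3 weeks it was higher than adult, at 194 and 315 CPM. No group overlapped its neighbour in that order. It fell by 0.79 ± 0.21 on the log2 scale at 1 day (edgeR adjusted p = 0.00848), by 0.96 ± 0.23 at 1 week (edgeR adjusted p = 0.0116) and by 1.28 ± 0.21 *in vitro* (edgeR adjusted p = 0.000420), and it rose by 0.70 ± 0.21 at 3 weeks (edgeR adjusted p = 0.0199). The fall at 1 day ended in 2 of 21 other settings, without adult replicate 1 and without slice 1 day replicate 2 (adjusted p up to 0.0772). The fall at 1 week ended in 4 of 20, without adult replicate 1 or either 1 week library and with thinned cells (adjusted p up to 0.183). The rise at 3 weeks ended without adult replicate 1, adult replicate 2 or slice 3 weeks replicate 2, and with library size alone as the scale, with log2 values of 0.36 to 0.82 and adjusted p of 0.052 to 0.106 in those 4 settings.

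**Figure D2:**
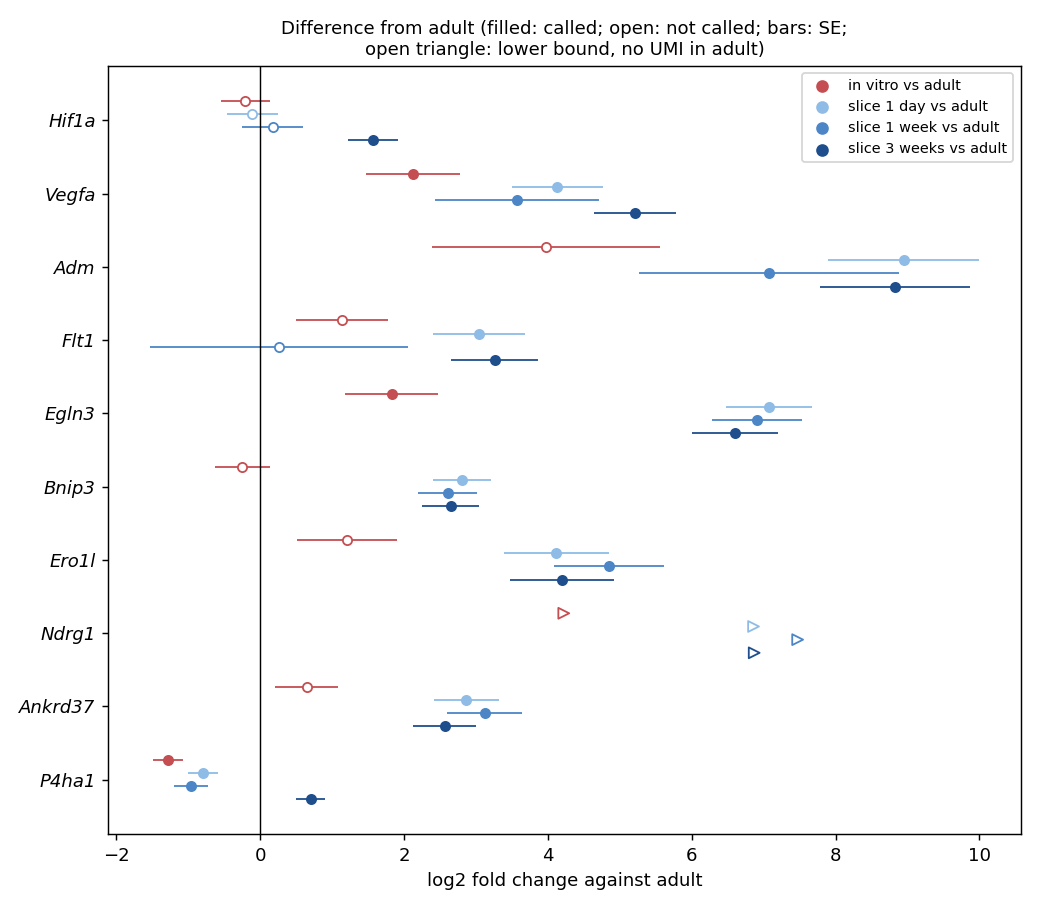
Log2 fold change of each gene against adult (horizontal axis) with bars of 1 SE from the edgeR fit; filled points were called, open points were not, and the open triangles for *Ndrg1* are lower bounds because adult had no UMI. *Egln3* lies between 6.60 and 7.07 at the 3 slice times and at 1.83 *in vitro*, while *P4ha1* lies below 0 in all but the 3 week slices; the *Adm* values rest on 1 adult UMI.

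Both culture systems start from newborn brain, so *in vitro* and slice microglia were also compared directly. All 10 genes were called lower *in vitro* than in 3 week slices, where 19.9% of all genes fitted were called lower and 13.3% higher. The largest differences were *Adm*, which fell by 4.86 ± 0.60 on the log2 scale (29.0-fold, edgeR adjusted p = 0.000174), and *Egln3*, which fell by 4.77 ± 0.48 (27.4-fold, edgeR adjusted p = 4.3e-05). *Vegfa* was 8.49-fold lower, *Ero1l* 7.93-fold, *Bnip3* 7.44-fold, *Ndrg1* 6.53-fold and *Flt1* 4.35-fold. Without slice 3 weeks replicate 2 all 10 differences kept their direction. That of *Hif1a* was then -0.88, of *Ankrd37* -1.31, of *Ero1l* -1.56, of *Bnip3* -2.19, of *Vegfa* -2.28, of *Adm* -3.58 and of *Egln3* -4.10, all still called, and that of *Ndrg1* was -0.55 and was not (adjusted p = 0.460). The *Ndrg1* call ended in 3 of the other settings too, without either *in vitro* library and in the fit of only these 2 groups. The smallest differences were those of *Hif1a* (3.43-fold), *Ankrd37* (3.78-fold) and *P4ha1* (3.96-fold). Against 1 day slices 8 genes were called lower (18.6% of all) and none higher (13.3% of all), with *Hif1a* at -0.10 ± 0.35 and *P4ha1* at -0.49 ± 0.21 not called. Of 21 other settings, 5 ended the 1 day call of *Ndrg1*, 3 that of *Flt1* and 2 that of *Vegfa*. Against 1 week 5 genes were called lower (10.0% of all) and none higher (6.20% of all), namely *Egln3*, *Ero1l*, *Ndrg1*, *Bnip3* and *Ankrd37*. Without slice 1 week replicate 1 the first and the fourth of these were -3.72 and -1.95 and still called, and the other 3 ran from -1.87 to -1.44 and were not (adjusted p from 0.431 to 0.726). The 2 *in vitro* libraries stand in all 3 comparisons. Summed markers of brain macrophages were also highest in these libraries, chiefly through *Ms4a7* (2237.5 and 2190 CPM on library size alone) and *Pf4* (1873 and 1788 CPM). *Lyve1* was instead lower *in vitro* (0.648 and 0.277 CPM) than at 1 day (4.64 and 6.19 CPM), as was *Cd163* (0.736 and 1.11 against 2.18 and 1.57 CPM). UMIs of 2 or more genes of the list were held by 2399 of 2417 and 2670 of 2682 *in vitro* cells. The part of these markers in the differences was not tested. UMIs per cell were highest there as well, and thinning all cells to 1500 UMIs kept 9 of the 10 calls against 3 weeks and ended that of *Flt1* (log2 -1.82, adjusted p = 0.063). Over 21 settings this *Flt1* difference ran from -2.59 to -1.65, with adjusted p from 7.0e-06 to 0.0914. With thinned cells *Flt1* was not called against 1 day either (-1.06, adjusted p = 0.463), nor was *Ndrg1* against 1 week (-2.37, adjusted p = 0.391).

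**Figure D3:**
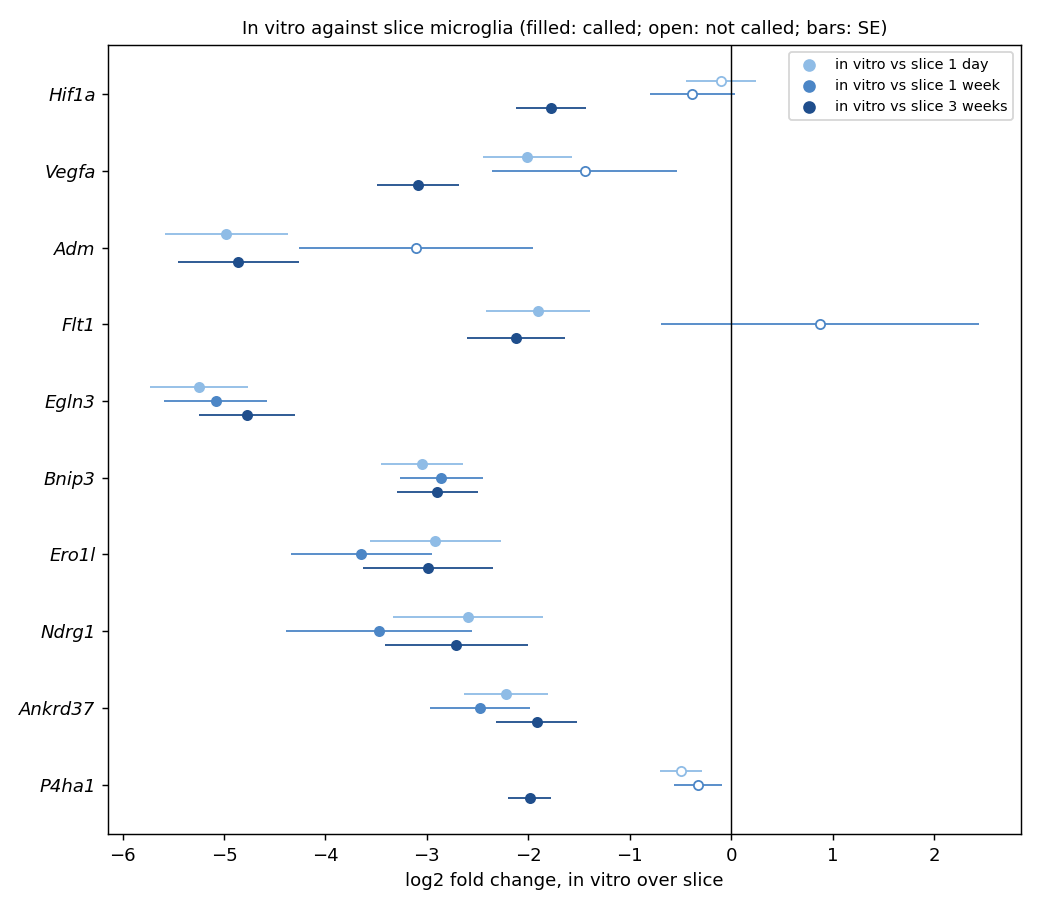
Log2 fold change of *in vitro* over slice microglia (horizontal axis) with bars of 1 SE from the edgeR fit, 1 point for each slice time; filled points were called. All 10 points of the 3 week comparison lie between -4.86 and -1.78, and at 1 week *Flt1* lies at 0.88 with an SE of 1.57.

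Within slices, *Hif1a* and *P4ha1* were higher at 3 weeks than at 1 day, and no other member was called between these times. From 1 day to 3 weeks 2 of 10 were called higher (13.9% of all), *Hif1a* and *P4ha1*, and none lower (12.8% of all). The *P4ha1* rise was 2.81-fold (1.49 ± 0.21, edgeR adjusted p = 0.000851). Differences of the other 8 from 1 day to 3 weeks ran from -0.47 ± 0.40 for *Egln3* to 1.08 ± 0.41 for *Vegfa* (edgeR adjusted p = 0.0697). From 1 day to 1 week none of the 10 was called by edgeR in either direction (4.91% of all were higher and 5.25% lower), with none at an unadjusted p under 0.05 and none by DESeq2. From 1 week to 3 weeks *P4ha1* alone was called higher (2.23% of all), 3.16-fold (1.66 ± 0.23, edgeR adjusted p = 0.00421), and none lower (3.49% of all). The 1 week group held 148 and 61 cells, and the SE of a member's difference from 1 day ran from 0.24 for *P4ha1* to 1.31 for *Flt1*. Modest changes of the sparser members could therefore not be seen there.

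The 2 libraries of a group did not always sit close together, most of all at 1 week and 3 weeks. At 3 weeks 9 of the 10 were higher in replicate 2, by 0.70 for *P4ha1* to 2.80 for *Ndrg1* on the log2 scale, and *Flt1* was lower by 0.62. The median absolute ratio over all genes fitted was 0.33 for that pair. At 1 week all 10 were lower in replicate 2, with a median of -1.54 against a median absolute ratio of 0.49 over all genes. In adult, *in vitro* and 1 day slices the members' median ratios were -0.14, 0.06 and -0.11. The 3 week libraries carry different study labels, and replicate 1 shares its label only with adult replicate 1, while the other 8 libraries carry the second label. Within the first label the slice library of 3 weeks was above its adult library for all 10 genes, with a median log2 ratio of 2.31 on CPM plus 1. Within the second label the median ratio to adult replicate 2 was 3.38 for the 3 week library, 2.98 and 2.81 for the 1 day libraries, 3.22 and 1.64 for the 1 week libraries and 0.72 and 0.83 *in vitro*. Without replicate 2 of 3 weeks, *Ndrg1* and *Adm* passed as lower at 3 weeks than at 1 day, at -1.96 (adjusted p = 0.0299) and -1.33 (adjusted p = 0.0371), and *Ero1l* was at -1.28 and did not pass (adjusted p = 0.107).

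**Figure D4:**
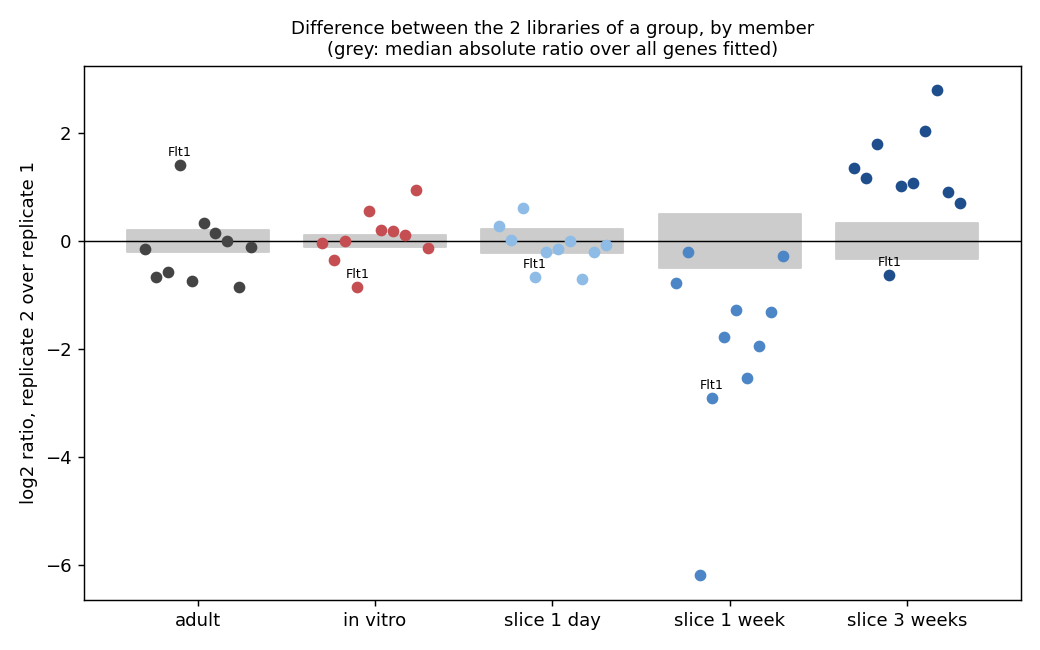
Log2 ratio of replicate 2 over replicate 1 (vertical axis) for the 10 genes in each group, with *Flt1* named and grey bands at plus and minus the median absolute ratio over all genes fitted. All 10 points of 1 week lie below 0, and at 3 weeks 9 lie above 0 while *Flt1* lies at -0.62.

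Shares of cells with a UMI are given as a description, with no background from a cell type known to lack these genes. Free RNA can put UMIs into any droplet, and all 1014 cells of slice 1 day replicate 2 and all 148 of slice 1 week replicate 1 held UMIs of 2 or more neutrophil genes. Without thinning, *Bnip3* was found in 12.7% and 9.98% of adult cells, 32.7% and 35.98% of *in vitro* cells and 34.4% to 64.4% of cells in the slice libraries. Cells differed in depth, with 12858 and 13966 UMIs at the median *in vitro*, 3257 and 1858 in adult and 5266 to 8335 in the slice libraries. With each cell thinned to 1500 UMIs, the shares were 5.34% and 8.01% in adult and 3.89% and 4.996% *in vitro*. In slices they were 29.8% and 28.8% after 1 day, 29.1% and 12.5% after 1 week, and 19.9% and 31.0% after 3 weeks. Thinned shares for *Egln3* were at most 0.112% in adult and 0.373% *in vitro*, and 14.6% and 16.2% at 1 day. For *Flt1* the thinned share was below 1% in every library, 0.954% and 0.508% at 3 weeks and 0.0568% and 0.15% in adult. Thinning left out 278 and 856 shallower adult cells and at most 7 cells of any other library.

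Neutrophil markers moved with the 1 day and 1 week slices, so the 10 genes were read apart in cells with over 2% of UMIs from the neutrophil list. These were 68 of 518 and 110 of 1014 cells at 1 day, 24 of 148 and 1 of 61 at 1 week and none in the other libraries. *Bnip3* stood at 227 and 201 CPM in these cells of the 1 day libraries and at 336 and 301 CPM in all other cells of the same libraries, here on library size alone. *Egln3* stood at 122 and 118 CPM in them and at 148 and 125 CPM in the others. *Ankrd37* lay the other way, at 87.4 and 118 CPM in them and 53.9 and 41.1 CPM in the others, with counting intervals apart in replicate 2 (94.7 to 145.5 against 36.9 to 45.5). *Ero1l* held 24 and 71 UMIs in them, 139.8 and 95.3 CPM, and stood at 99.999 and 99.5 CPM in the others. *Adm* had 0 and 2 UMIs in the neutrophil-rich cells, 0 and 2.68 CPM, against 23.5 and 36.05 CPM in the others. In slice 1 week replicate 1 *Ankrd37* stood at 54.2 CPM in such cells and 73.9 CPM in the others, the opposite order to 1 day with intervals that overlap. *Ero1l* stood there at 61.0 CPM (27.9 to 115.7) in such cells and 264 CPM (232 to 299) in the others. Leaving these cells out, a setting added after the data were seen, kept 56 of 57 calls over the 10 comparisons. The call it ended was *Vegfa* at 1 week against adult (3.22, adjusted p = 0.102).

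The wider pathway was described from lists of other genes. Of 14 fitted HIF pathway components, the calls went both ways: 5 were called higher and 2 lower at 1 day, 1 and 0 at 1 week, 3 and 0 at 3 weeks and 5 and 3 *in vitro*, all against adult. The shares of all genes fitted called higher and lower were 24.9% and 25.3% at 1 day, 15% and 13.6% at 1 week, 17.9% and 17.5% at 3 weeks and 22.4% and 28.5% *in vitro*, and the counts of this and the next 3 lists are to be read against them. *Arnt*, the constant partner of HIF alpha, was called in none of the 10 comparisons, at 13.3 and 10.9 CPM in adult and 11.1 and 15.3 CPM at 3 weeks. *Vhl*, which targets hydroxylated HIF alpha, was at 44.8 and 51.9 CPM in adult and lower *in vitro*, at 14.3 and 14.1 CPM (log2 -1.76 ± 0.15, edgeR adjusted p = 5.2e-06), and at 1 day, at 23.1 and 22.2 CPM. *Egln1*, the main oxygen-sensing hydroxylase, rose 0.64 ± 0.23 *in vitro* (edgeR adjusted p = 0.0361), 0.68 ± 0.25 at 1 day (edgeR adjusted p = 0.0394) and 1.10 ± 0.24 at 3 weeks (edgeR adjusted p = 0.00445), and was not called at 1 week. *Epas1*, which encodes HIF-2 alpha, was at 0 in adult and 1 day libraries and at 3.21 and 5.53 CPM *in vitro*, with 0.388 and 0.466 CPM at 3 weeks.

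Of 5 fitted VEGF ligands and receptors other than *Vegfa* and *Flt1*, 3 were called higher *in vitro*, 2 at 1 day, 2 at 1 week and 3 at 3 weeks, with 1 lower at 1 day. With 5 genes, the shares of all genes called higher (22.4%, 24.9%, 15% and 17.9%) correspond to about 1 gene each. *Nrp1*, a co-receptor, was at 101.4 and 87.1 CPM in adult, 412 and 388 CPM *in vitro* and 194 and 318 CPM at 3 weeks, called higher in both and at 1 week. *Vegfb* was called higher *in vitro* (1.09 ± 0.21, edgeR adjusted p = 0.00145) and at 3 weeks (0.77 ± 0.22, edgeR adjusted p = 0.0172). *Kdr*, the main VEGF receptor of endothelium, had at most 2.96 CPM in any library and was called lower at 1 day, where it had 2 UMIs.

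Other HIF targets and glycolytic enzymes under HIF control were called higher in slices more often than lower. Of 24 fitted targets, 14 were called higher and 1 lower at 1 day, 8 and 1 at 1 week, 14 and 1 at 3 weeks and 7 and 10 *in vitro*, where 22.4% of all genes were called higher and 28.5% lower. *Hmox1*, which degrades heme and is also raised by oxidative stress, was at 31.7 and 26.3 CPM in adult and 1693 and 1936 CPM at 1 day. *P4ha2*, the sister of *P4ha1*, was at 0.439 and 0.386 CPM in adult and at 44.8 and 38.4 CPM at 1 day, the opposite direction to *P4ha1*. *Hilpda*, which slows lipid breakdown, was at 14.1 and 15.5 CPM in adult, 12.98 and 16.4 CPM *in vitro* and 52.8 and 197 CPM at 3 weeks.

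Of 13 fitted glycolytic enzymes, 10 were called higher at each slice time, with 1 lower at 1 day, and 9 were higher and 1 lower *in vitro*, against 15% to 24.9% of all genes called higher in these 4 comparisons. *Pkm*, pyruvate kinase, was at 255 and 276 CPM in adult, 1005 and 1173 CPM *in vitro* and 1808 and 1580.4 CPM at 3 weeks. *Tpi1*, triosephosphate isomerase, was at 89.4 and 75.7 CPM in adult, 285 and 359 CPM *in vitro* and 908 and 924 CPM at 1 day. Between *in vitro* and 3 week slices, 9 of the 13 enzymes and 16 of the 24 targets were called lower *in vitro*, and none and 2 higher. *Hk2*, hexokinase, was lowest *in vitro*, at 62.1 and 42.1 CPM against 231 and 150 CPM in adult.

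**Figure D5:**
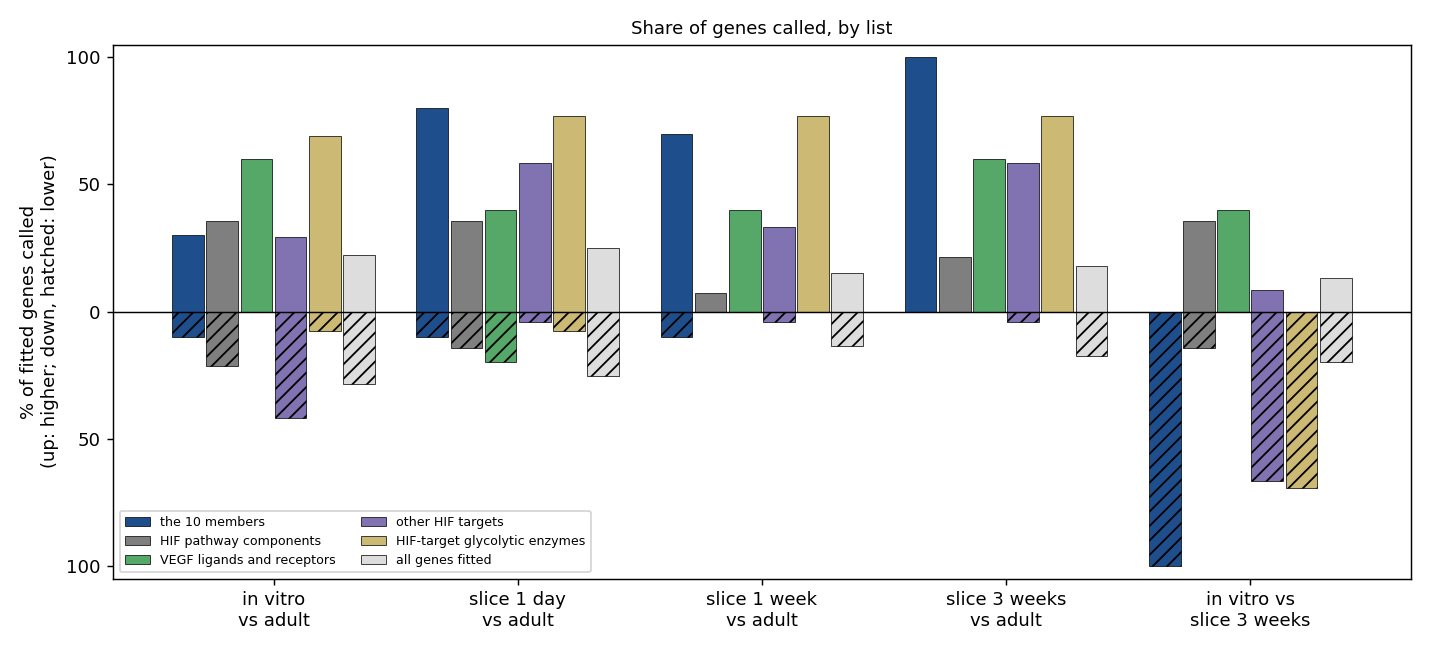
Share of the fitted genes of each list called higher (plain bars above 0) or lower (hatched bars below 0) in 5 comparisons, in percent, with all genes fitted in light grey. The 10 members reach 100% higher at 3 weeks against adult and 100% lower *in vitro* against 3 weeks, where 17.9% and 19.9% of all genes were called so.

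Across the 10 libraries, *Bnip3*, *Egln3*, *Ero1l*, *Ndrg1* and *Ankrd37*, a group named after its values were seen, were the most alike, with Pearson correlations of log2(CPM + 1) from 0.89 to 0.98 over their 10 pairs. *P4ha1* stood apart, with -0.04 to 0.39 against all but *Hif1a* (0.82), and *Flt1* reached 0.39 to 0.82 against the other 9. The libraries fall into 5 groups and share depth with them, so these are descriptions. Of the fitted genes averaging 5 or more in log2 CPM, the nearest to *Flt1* were *Rnf128* (0.94), *Ccl4* (0.90) and *Akirin1* (0.89), and the nearest to *Vegfa* were *Sars* (0.99), *Wdfy1* (0.98) and *Eprs* (0.95). The nearest to *Hif1a* were *Pla2g12a* (0.94), *Nktr* (0.93) and *Cox6a2* (0.91), and the nearest to *Bnip3* were *Hilpda* (0.98), *Egln3* (0.97) and *Me2* (0.96).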

How the data were processed

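Counts of 10x Genomics 3' libraries were used as the authors deposited them, with 1 table of raw UMI counts for each library, genes by cells. The submitters' processing notes name Cell Ranger 1.3.0 and mm10; the annotation is not given in the sources used here. Cells past the study's limits (over 5% mitochondrial UMIs, under 400 genes, over 30000 UMIs) were removed, 578 in all. No doublet caller was run, and the UMI limit was the only step that could remove doublets. Counts were summed per library (in Python 3.11.15) and fitted with edgeR 4.0.16 (glmQLFit, glmQLFTest, TMM, filterByExpr at 10 counts) in a single model with a common spread across the 5 groups (biological coefficient of variation 18.3%). The Benjamini-Hochberg adjustment covered the 12157 genes fitted, and ± in a log2 change is 1 SE. The study describes the 2 samples of a group as independent; p-values measure the spread between such libraries. The script was tested on simulated data.

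The 10 genes and the lists were chosen with earlier results of these data known. All 10 genes are named; in the lists of other genes, named ones were Arnt, Epas1, Egln1, Vhl, Vegfb, Kdr and Nrp1 and up to 4 called genes of largest change per list and comparison; for 4 members the 3 most correlated genes were named. Thinning drew 1500 UMIs from each cell and kept 17909 cells. Floors are 3 counts, and intervals of count ratios are exact 95% ones; both cover counting error only. Alternatives were other scalings (DESeq2 1.42.0 size factors, library size alone), the DESeq2 test, no filter on low counts, every barcode, thinned cells, each library left out, the replicate block, the study label as a covariate and a fit of only the groups compared. Leaving out neutrophil-rich cells, or both 1 week libraries, was added after the data were seen. Library pairs shared 0 to 21 barcodes. Same-numbered libraries were compared by the correlation of their deviations from the group means.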

Additional observations from a re-analysis of the deposited data

How the results depend on the processing

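Over all settings, the 57 called differences kept their call 1125 times, lost it 55 times and turned 1 time. The 17 not called against adult, *in vitro* against 3 weeks or at 3 weeks against 1 day stayed so 311 times, passed 22 times and turned 21 times, and those not called in the other 4 comparisons were not counted. The counts against adult at 1 day (8 to 9) and 3 weeks (9 to 10), and of *in vitro* against 3 weeks (8 to 10), held with each library left out. *In vitro* against adult gave 4 calls, 8 with no filter on low counts, 2 with the study label as a covariate, 2 with thinned cells and 1 to 6 with a library left out, the fewest without adult replicate 1. Leaving out a library gave 2 to 8 calls for 1 week against adult and 2 to 6 for *in vitro* against 1 week, the fewest in both without slice 1 week replicate 1, 5 to 8 for *in vitro* against 1 day, 2 to 4 for 3 weeks against 1 day, 0 to 1 for 1 week against 1 day and 0 to 4 for 3 weeks against 1 week. With no filter, 1 week against 1 day had 2 calls and 3 weeks against 1 week 4, and the latter had 2 by the DESeq2 test and 3 with the study label. Signs turned for small or sparse differences, and the cause was not tested. With a library left out, *Hif1a* ran from -0.20 to 0.020 at 1 day against adult and from -0.33 to 0.38 at 1 week, *Flt1* from -6.04 to 1.24 and *Adm* from -2.62 to 9.61 at 1 week, where replicate 2 had no UMI of either. For 3 weeks against 1 day it was -0.13 to 0.56 for *Flt1*, -0.79 to 0.28 for *Bnip3*, -1.28 to 0.74 for *Ero1l*, -1.33 to 0.46 for *Adm*, -1.96 to 0.88 for *Ndrg1* and -0.83 to 0.062 for *Ankrd37*. The study label as a covariate gave -0.17 for *Hif1a* at 1 week against adult, and 0.12 for *Bnip3* and 0.45 for *Adm* at 3 weeks against 1 day. Library size alone, which shifted the median of all genes by -0.30 *in vitro* against adult, gave -0.041 for *Hif1a* at 1 week and -0.0188 for *Ero1l* at 3 weeks against 1 day, and the DESeq2 test gave -0.0071 for *Ndrg1*. The replicate block gave -0.0233 for *Ndrg1* at 3 weeks against 1 day and kept all 57 calls. Same-numbered libraries had correlations of -0.112 to 0.0941, so no pairing by number was seen. Such values cannot exclude other shared handling, and adult replicate 1 and slice 3 weeks replicate 1 also share a study label. Leaving out cells with UMIs of 2 or more genes of other cell types was not run, since it left 0 cells in slice 1 day replicate 2 and slice 1 week replicate 1. Depth limits the 1 week group most, with floors of 2.96 and 7.68 CPM.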
